A study of Mus musculus with 16 samples.

Results

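Livers of mice with a liver-specific knockout of LKB1 were compared with wild-type livers after AICAR, on 4 of the 16 Illumina expression arrays of the series: 2 of knockout and 2 of wild-type liver, chosen by their labelled genotype and agent. All the livers came from male FVB mice of 10 weeks. The other 12 arrays hold knockout and wild-type livers in saline, in mineral oil and after CCl4, with 2 arrays in each of these 6 groups. They are used below to set the knockout effect after AICAR beside that under the other agents. They also entered the normalization, the probe filter and the fit, so the spread behind each p-value after AICAR is taken over all groups. AICAR is a nucleoside that cells turn into an analog of AMP, saline or mineral oil was given to the control mice, and CCl4 is a liver toxin. The sources used here do not give the driver of the liver-specific deletion, the doses or the times of collection. The labels describe the arrays of a group as biological replicates without linking any array to an animal. The p-values therefore reflect the spread among the arrays of the series alone, which may be technical.

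LKB1 is a kinase that activates AMP-activated protein kinase (AMPK), the energy sensor on which AICAR acts, and a family of AMPK-related kinases that includes the salt-inducible kinases. In hepatocytes AMPK and the salt-inducible kinases phosphorylate the CRTC coactivators and hold them in the cytoplasm. Unphosphorylated CRTC2 enters the nucleus and acts with the transcription factor CREB on genes for glucose production, among them those for PGC-1alpha, glucose-6-phosphatase and PEPCK. The AMP analog made from AICAR also acts outside AMPK, for example as an inhibitor of fructose-1,6-bisphosphatase. The comparison addresses what loss of LKB1 changes in a liver exposed to this agent.

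In knockout livers after AICAR, 15 of 18 tested CREB and CRTC targets rose, as did 12 of 29 genes of the ATF4 stress response, 11 of 21 immediate early genes, 5 of 17 clock genes and 6 of 30 genes for urea synthesis and amino acid breakdown, while 4.02% of all tested genes rose. No member of these 5 lists fell. The lists share called genes, such as Dusp1, Per1, Got1 and Atf3, so their counts are not separate results. The lists were chosen with earlier results of these data known. G6pc, the catalytic subunit of glucose-6-phosphatase, rose by 4.63 log2 units (3.99 to 5.27 with 1 array left out), and Fgf21, a hormone that the liver releases in fasting and under amino acid stress, and Igfbp1, a secreted binding protein of insulin-like growth factors, rose by more than 4 log2 units. The class II histocompatibility genes H2-Aa and H2-Eb1, the acute-phase gene Lcn2, the constitutive androstane receptor gene Nr1i3 and the stellate cell genes Acta2, Col1a1 and Pdgfrb fell. H2-Aa and H2-Eb1 were also low on some knockout arrays of the other agents. In all, 854 of 11338 tested genes were called (limma, adjusted p under 0.05), which is 7.53%: 456 (4.02%) were higher and 398 (3.51%) lower in knockout livers. The median absolute log2 difference of the called genes was 1.33, and 115 higher and 63 lower genes differed by at least 2 log2 units. The groups did not overlap for any of the 854, whereas over all tested genes 25.9% had both knockout arrays above both wild-type arrays and 31.6% had both below. The number of calls depended on each array: 229 genes were called without wild-type array 1, 253 without wild-type array 2, 355 without knockout array 1 and 345 without knockout array 2, and 223, 246, 321 and 305 of these were among the 854.

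Levels are given as normalized log2 intensity on each array, and differences as knockout minus wild-type log2 intensity with the standard error of the fit. Detected probes numbered 12964 to 13730 on the 4 AICAR arrays and 12233 to 13730 on all 16. The SD of the log2 differences between arrays was 0.395 within the knockout pair, 0.293 within the wild-type pair and 0.664 to 0.709 between the groups. The 2 knockout saline arrays differed by no more than probe noise (r = 0.01 between probes of the same gene, against 0.47 or more for each of the other 119 pairs of arrays), and they were counted as 1 sample. Defining hepatocyte genes were high on all 4 AICAR arrays: Apoa1 had 15.77 and 15.62 in knockout livers against 15.96 and 15.96 in wild-type livers, and Cps1 had 15.36 and 15.65 against 14.85 and 14.82. The probe for Alb was dim, with 5.23 and 6.15 in knockout livers against 6.64 and 6.83 in wild-type livers. Of 10 tested hepatocyte markers 0 were called in limma, and 1 had an unadjusted p under 0.05.

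Stk11, the gene that encodes LKB1, had 9.54 and 9.23 in knockout livers against 10.32 and 10.33 in wild-type livers after AICAR. Both knockout arrays lay below both wild-type arrays, and the difference was -0.94 ± 0.19 (adjusted p = 0.014). The knockout effect on this probe was -1.14 in saline, -1.16 in mineral oil and -0.91 after CCl4. Where the probe lies relative to the deleted part of the gene is not known here, and in whole liver, RNA from cells that kept the gene and residual RNA in hepatocytes cannot be told apart. Without knockout array 2, wild-type array 1 or wild-type array 2 the call after AICAR was lost, with adjusted p up to 0.095.

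The AMPK subunits and the partners of LKB1 did not pass the test. Of 9 tested genes of the LKB1 complex and AMPK, Stk11 was the only call. Prkaa2, a catalytic subunit, had 8.14 and 8.10 in knockout livers against 7.62 and 7.89 in wild-type livers (0.36 ± 0.27, adjusted p = 0.45). The regulatory subunits Prkab1, Prkab2, Prkag1 and Prkag2 differed by 0.20, 0.40, -0.32 and -1.02, and Strada, the pseudokinase that activates LKB1, by -0.56. Prkaa1 and Cab39 were not tested. Of 11 AMPK-related kinases, 2 were called, 1 higher and 1 lower (9.09% each, against 4.02% and 3.51% of all tested genes). Sik1, a salt-inducible kinase that CREB itself induces, had 10.49 and 10.57 in knockout livers against 6.49 and 6.91 in wild-type livers (3.83 ± 0.45, adjusted p = 0.001). Nuak2, another LKB1 substrate, had 8.66 and 8.64 in knockout livers against 10.29 and 9.78 in wild-type livers (-1.39 ± 0.22, adjusted p = 0.0039). Both calls held without each of the 4 arrays in turn. Of 19 tested substrates of AMPK, 3 rose (15.8%, against 4.02% of all tested genes) and none fell. They were Ppargc1a, Ulk1, which starts autophagy, and Hdac4, a class II histone deacetylase. The differences were 1.19 (adjusted p = 0.045) for Ulk1 and 1.02 (adjusted p = 0.046) for Hdac4. Each of these 3 calls was lost when any of the 4 arrays was left out, those for Ulk1 and Hdac4 also without the probe filter and with the replicate block, and that for Hdac4 with median centring and with only the AICAR arrays fitted.

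**Figure D1:**
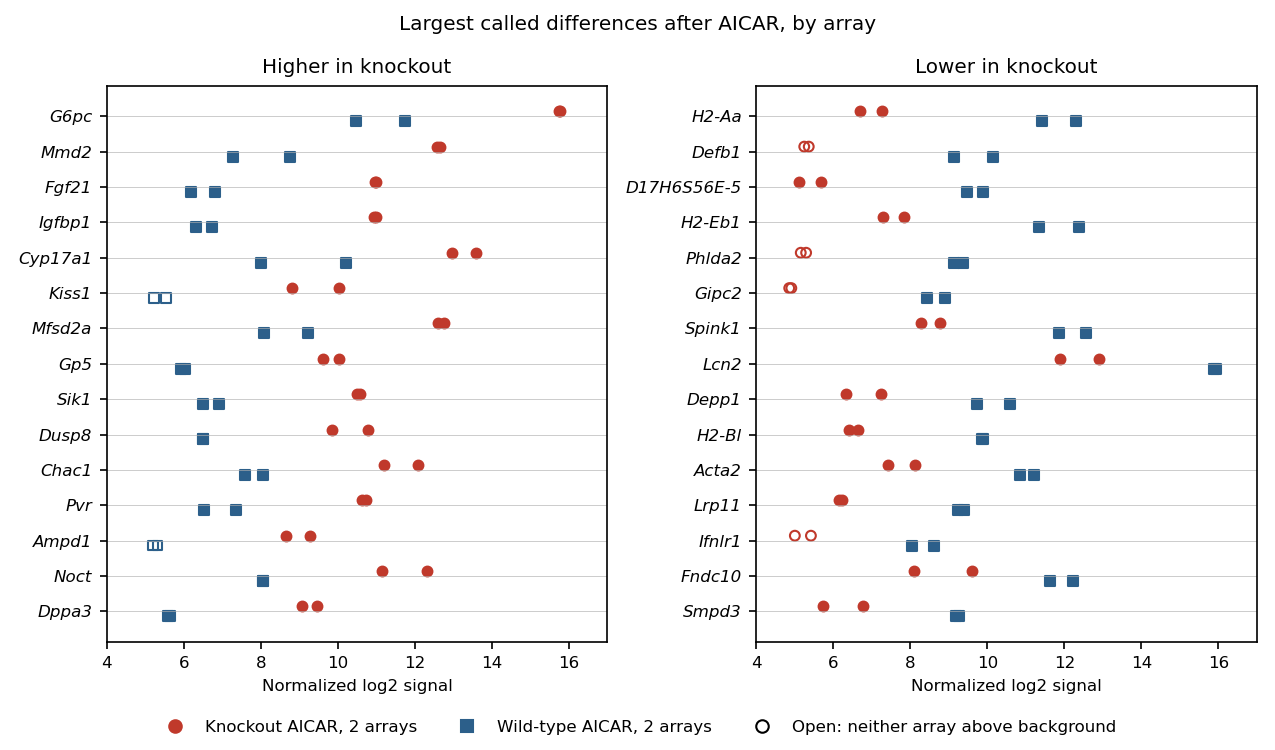
The 15 genes with the largest called rise (left) and the largest called fall (right) in knockout livers after AICAR, with the normalized log2 signal of each of the 2 knockout and 2 wild-type arrays as a filled point, or an open point where neither array of the group was above background. The 30 genes were taken from called genes whose arrays do not overlap between the groups, and G6pc on the knockout arrays (15.73 and 15.76) is among the brightest values.

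Among genes with a symbol, G6pc rose the most. It had 15.73 and 15.76 in knockout livers, close to the top of the scale, against 10.48 and 11.75 in wild-type livers, a difference of 4.63 ± 0.57 (adjusted p = 0.0011). The wild-type arrays were further apart than the knockout arrays, and both lay far below them. Igfbp1 had 10.99 and 10.93 in knockout livers against 6.30 and 6.72 in wild-type livers (4.45 ± 0.56, adjusted p = 0.0012). Fgf21 had 10.962 and 11.003 in knockout livers against 6.19 and 6.80 in wild-type livers (4.49 ± 0.72, adjusted p = 0.0049). The knockout effect on G6pc was 1.77 in saline, 1.53 in mineral oil and 2.50 after CCl4, that on Igfbp1 was 2.01, 1.78 and 1.92, and that on Fgf21 was 0.58, 1.35 and 0.02. Fgf21 was called in each omission except that of wild-type array 1 (adjusted p = 0.0525).

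Several of the genes that rose most also stood high in knockout livers under every agent. Mmd2, a membrane protein of the progestin and adipoQ receptor family, had 12.65 and 12.58 in knockout livers against 7.27 and 8.75 in wild-type livers (4.61 ± 0.76, adjusted p = 0.0057), and its knockout effect was 5.02 in saline, 3.21 in mineral oil and 3.60 after CCl4. Cyp17a1, the steroid 17-alpha-hydroxylase, had 13.60 and 12.97 in knockout livers against 10.22 and 8.0 in wild-type livers (4.17 ± 0.76, adjusted p = 0.0089), with knockout effects of 4.38, 5.48 and 6.81 under the same 3 agents. Kiss1, the precursor of the kisspeptin peptides, had 10.04 and 8.82 in knockout livers and was not above background on either wild-type array (5.22 and 5.54). For such genes a lower bound is given: the mean of the brighter group over the weakest signal still detected on each array of the dimmer group. It is a bound for the background-corrected values only, since differences of dim genes were smaller without that correction. Kiss1 was at least 14.8-fold higher in knockout livers (adjusted p = 0.00015). The call for Mmd2 was lost without wild-type array 1 (adjusted p = 0.062), and that for Cyp17a1 without wild-type array 2 or knockout array 1 (adjusted p up to 0.075).

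Another 6 of the 15 genes with the largest rise had smaller knockout effects under the other agents, from -1.57 (Dppa3 after CCl4) to 1.42 (Noct in saline). Gp5, known as a platelet surface glycoprotein, had 9.62 and 10.04 in knockout livers against 5.92 and 6.04 in wild-type livers (3.85 ± 0.22, adjusted p = 3.6e-05). Dusp8, a phosphatase of MAP kinases, had 10.79 and 9.85 against 6.51 and 6.51 (3.82 ± 0.30, adjusted p = 0.00011). Pvr, a cell adhesion molecule of the nectin-like family, had 10.62 and 10.73 against 7.36 and 6.53 (3.73 ± 0.37, adjusted p = 0.00037). Dppa3, a protein of germ cells and the early embryo, had 9.45 and 9.07 against 5.59 and 5.63 (3.66 ± 0.54, adjusted p = 0.0031). Noct, nocturnin, an enzyme with a daily rhythm in liver, had 11.16 and 12.31 against 8.07 and 8.06 (3.67 ± 0.59, adjusted p = 0.005). Mfsd2a, a transporter of lysophosphatidylcholine, had 12.61 and 12.77 against 9.22 and 8.07 (4.05 ± 0.95, adjusted p = 0.028). In each of these 6 genes both knockout arrays lay above both wild-type arrays, which the rule for naming them required. The call was lost when an array was left out in Mfsd2a alone (any of the 4). For dim genes the size of the difference depended on the background correction: without it the log2 difference was 2.36 for Gp5, 2.00 for Dppa3 and 2.23 for Kiss1.

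Of 24 listed symbols of CREB and CRTC targets, 18 were tested, and 15 of them (83.3%) rose in knockout livers, against 4.02% of all tested genes. None fell, and the median difference over the 18 was 2.22, beside -0.04 over all tested genes. The list was chosen with earlier results of these data known, so these shares describe its members and are no independent test. Besides G6pc, Kiss1 and Sik1 above, Dusp1, a MAP kinase phosphatase that cAMP induces within minutes, had 14.45 and 14.81 in knockout livers against 11.33 and 11.13 in wild-type livers (3.40 ± 0.29, adjusted p = 0.00015). Ppargc1a, the gene of PGC-1alpha, had 9.01 and 9.37 in knockout livers against 5.49 and 6.53 in wild-type livers, where 1 of the 2 arrays was above background (3.18 ± 0.69, adjusted p = 0.021). The 3 members that did not pass were Rgs16 (1.68, adjusted p = 0.14), Pde4b (0.78) and Creb3l3 (-0.34). With each of the 4 arrays left out in turn, 8 of the 18 were called each time.

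The median knockout effect over the same 18 genes was 0.61 in saline, 1.21 in mineral oil and 1.21 after CCl4, and 10 of them were called higher when these 3 effects were averaged. The plot of the list by agent gives each member. The difference between the knockout effect after AICAR and the mean of the other 3 was called for 1 of the 18, Dusp1 (2.95, adjusted p = 0.0027), whose knockout effect was 0.57 in saline, 0.23 in mineral oil and 0.55 after CCl4. For G6pc that difference did not pass (adjusted p = 0.076). Sik1 was high in knockout livers under each agent, with effects of 2.10 in saline, 2.62 in mineral oil and 3.64 after CCl4.

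**Figure D2:**
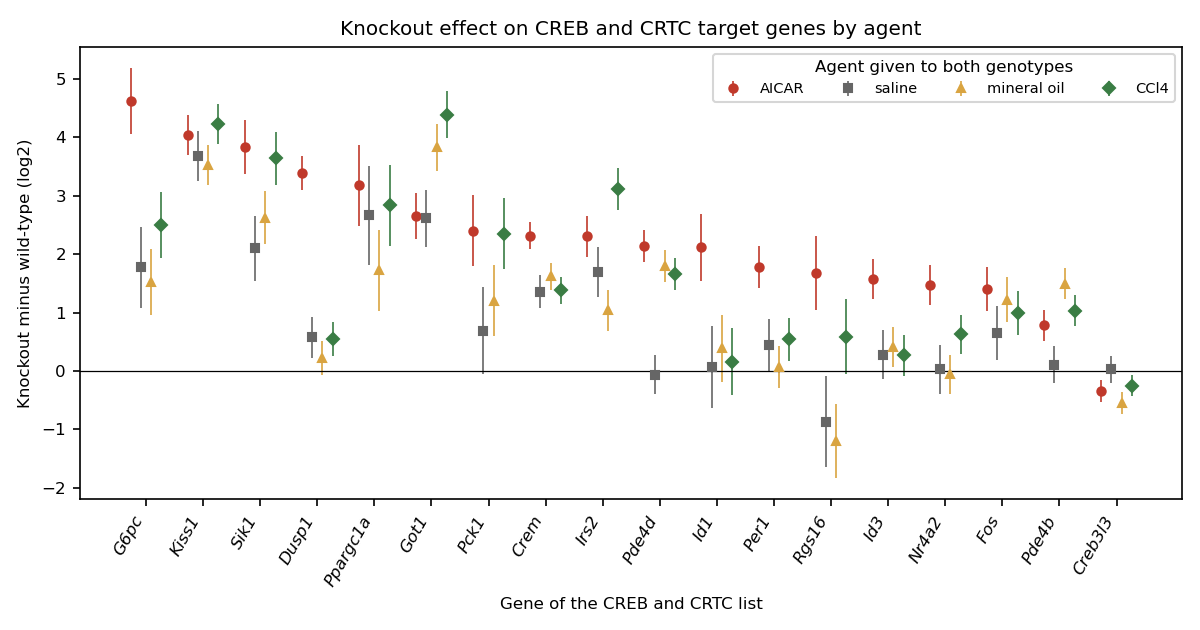
Knockout minus wild-type log2 difference of each of the 18 tested CREB and CRTC targets, with a point and its standard error for each agent. After AICAR 17 of the 18 are above 0, and Dusp1, at 3.40 after AICAR and 0.23 to 0.57 under the other agents, is the member whose difference between agents was called.

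Within glucose production, the genes of its committed enzymes PEPCK, fructose-1,6-bisphosphatase and glucose-6-phosphatase rose, whereas pyruvate carboxylase did not pass the test. Of 24 tested genes of gluconeogenesis and its coactivators, 6 rose (25%, against 4.02% of all tested genes) and none fell. They were G6pc, Ppargc1a, Got1, Pck1, Fbp1 and Cebpb, and G6pc, Ppargc1a, Got1 and Pck1 are also on the list of CREB and CRTC targets. Pck1, which encodes PEPCK, had 11.35 and 11.82 in knockout livers against 8.53 and 9.84 in wild-type livers (2.40 ± 0.61, adjusted p = 0.038). Got1, the cytosolic aspartate aminotransferase, had 13.18 and 13.16 against 10.15 and 10.88 (2.66 ± 0.40, adjusted p = 0.0033). Fbp1, fructose-1,6-bisphosphatase, differed by 1.38 ± 0.27 (adjusted p = 0.012). Pcx, the gene of pyruvate carboxylase, Foxo1 and Crtc2 differed by 0.22, 0.06 and 0.12 and were not called. The calls for G6pc and Got1 held without each array in turn, whereas Pck1 and Ppargc1a were lost without any of the 4 and Fbp1 without wild-type array 1 or either knockout array, and 2 or 3 of the 24 were called each time. Pck1 was also lost without the probe filter and with the replicate block. Slc2a2, the glucose transporter GLUT2 of hepatocytes, had 11.95 and 11.63 in knockout livers against 10.64 and 10.70 in wild-type livers (1.12, adjusted p = 0.039), but its knockout effect in saline was -1.55, and the difference between the AICAR and saline effects was called (2.67, adjusted p = 0.039). That call rested on 1 of 3 probes, since the other two, also bright, differed by 0.31 and 0.27 (unadjusted p = 0.43 and 0.47), and it was lost without any of the 4 arrays and with median centring. In the saline comparison the knockout arrays count as 1 sample, whose spread is taken from the other groups.

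Some genes of amino acid catabolism also rose. Of 30 tested genes for urea synthesis and the breakdown of amino acids, 29 were higher in knockout livers and 6 (20%) were called, all higher, with a median of 0.70. Etnppl, which breaks down phosphoethanolamine, differed by 3.27 (adjusted p = 0.013), Agxt, the peroxisomal alanine-glyoxylate aminotransferase, by 1.85 (adjusted p = 0.0099), and Cbs, which condenses homocysteine with serine, by 1.83 (adjusted p = 0.0059). The list had 12 calls when the knockout effects under the other 3 agents were averaged. Of 12 genes of the methionine cycle and transsulfuration, 4 rose (33.3%, against 4.02% of all tested genes). They were Nnmt (2.72, adjusted p = 0.016), which methylates nicotinamide, Ahcy (2.00, adjusted p = 0.02), which hydrolyses S-adenosylhomocysteine, Cbs and Cth (1.65, adjusted p = 0.027), which splits cystathionine. Cbs and Cth are also among the 6 called genes of the urea and amino acid list. Of 21 tested periportal genes 5 rose (23.8%), with Asl, argininosuccinate lyase, at 1.48 (lost without any of the 4 arrays, without the probe filter and with the replicate block). Of 25 pericentral genes only Nr1i3 was called, as lower (4%, against 3.51% of all tested genes). Glul, the pericentral glutamine synthetase, had 7.30 and 7.61 in knockout livers against 7.38 and 7.44 in wild-type livers (0.04, adjusted p = 0.94). With 1 array left out, 1 to 4 of the 30 genes and 0 or 1 of the 12 genes were left.

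Several targets of ATF4, the transcription factor that translates amino acid shortage and endoplasmic reticulum stress into gene expression, also rose. Of 29 tested genes of this response 12 (41.4%) rose, none fell, and the median was 0.98. Chac1, an enzyme that degrades glutathione, had 12.08 and 11.20 in knockout livers against 7.60 and 8.05 in wild-type livers (3.81 ± 0.64, adjusted p = 0.006). Atf4 itself had 10.76 and 10.73 against 8.57 and 8.40 (2.26 ± 0.20, adjusted p = 0.00023), and Atf3, a stress-induced repressor, had 11.91 and 12.17 against 8.85 and 9.01 (3.11 ± 0.72, adjusted p = 0.027). In all 3 genes the groups were well apart. The remaining calls included Fgf21 above, Psat1 of serine synthesis, Vldlr, Ppp1r15a, which restores translation, the amino acid transporter Slc7a5 and the mitochondrial folate enzyme Mthfd2. Ddit3 (-0.90, adjusted p = 0.32), Asns (1.37, adjusted p = 0.49) and Trib3 (1.16, adjusted p = 0.17), also ATF4 targets, did not pass.

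Under the other agents the same list lay closer to 0, with median knockout effects of 0.36 in saline, 0.44 in mineral oil and 0.11 after CCl4. Chac1 was lower in knockout livers under each of them, by -1.54, -1.41 and -0.63, so that its effect after AICAR exceeded their mean by 5.01 (adjusted p = 0.01). The same difference was called for Atf4 (1.79, adjusted p = 0.0055) and Mthfd2 (1.55, adjusted p = 0.032), and for no other member. Chaperones of the endoplasmic reticulum gave no call: of 22 tested, 0 were called in limma and 7 had an unadjusted p under 0.05, and their median was -0.12, with Hspa5, the chaperone BiP, at 0.80 (adjusted p = 0.096). The ATF4 count rested on all 4 arrays, with 2 calls left without wild-type array 1, 4 without wild-type array 2, 3 without knockout array 1 and 6 without knockout array 2. Atf4 was called in each omission, Atf3 in none, and Chac1 was lost without wild-type array 1 or knockout array 1 (adjusted p up to 0.06).

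ATF4 and its C/EBP partners bind a composite site whose core is written TGATGCAA, or TTGCATCA on the other strand, and CREB binds the palindrome TGACGTCA. These 2 motifs were searched, without mismatch, on both strands of the RefSeq promoters of build GRCm38.p6, which run from 250 bases before to 50 bases after each gene start. The promoters of Chac1, Fgf21 and G6pc, all among the 15 genes with the largest rise, held TTGCATCA on the sense strand, starting 193, 139 and 138 bases before the gene start. Dusp8, also among the 15, held TGACGTCA at 107 and 63 bases before its start. Dusp1, which is not among them, held it at 143. Only promoters with a motif were picked for display. The rest of the 15, Mmd2, Igfbp1, Cyp17a1, Kiss1, Mfsd2a, Gp5, Sik1, Pvr, Ampd1, Noct and Dppa3, were not among those found with either motif. Of 417 genes with a symbol that rose, 339 had a promoter, so some genes may have had no window to search. The picked promoters are shown 5′ to 3′ on the strand of the gene, with the motif in capitals. Chac1 lies at chr2:119350992-119351291 on the plus strand, Fgf21 at chr7:45615441-45615740 on the minus strand, G6pc at chr11:101367466-101367765 on the plus strand, Dusp8 at chr7:142095235-142095534 on the minus strand and Dusp1 at chr17:26508423-26508722 on the minus strand.
Chac1: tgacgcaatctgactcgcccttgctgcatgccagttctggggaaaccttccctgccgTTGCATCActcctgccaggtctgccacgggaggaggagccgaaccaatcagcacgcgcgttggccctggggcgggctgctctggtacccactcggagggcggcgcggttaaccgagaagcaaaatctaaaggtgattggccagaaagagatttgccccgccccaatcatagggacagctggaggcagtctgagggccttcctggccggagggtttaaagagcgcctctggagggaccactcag
Fgf21: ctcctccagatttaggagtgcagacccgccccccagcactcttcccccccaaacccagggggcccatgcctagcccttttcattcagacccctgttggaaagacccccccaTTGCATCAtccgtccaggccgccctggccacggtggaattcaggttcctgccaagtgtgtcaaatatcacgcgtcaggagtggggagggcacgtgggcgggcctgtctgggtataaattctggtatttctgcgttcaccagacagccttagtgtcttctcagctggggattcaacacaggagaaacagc
G6pc: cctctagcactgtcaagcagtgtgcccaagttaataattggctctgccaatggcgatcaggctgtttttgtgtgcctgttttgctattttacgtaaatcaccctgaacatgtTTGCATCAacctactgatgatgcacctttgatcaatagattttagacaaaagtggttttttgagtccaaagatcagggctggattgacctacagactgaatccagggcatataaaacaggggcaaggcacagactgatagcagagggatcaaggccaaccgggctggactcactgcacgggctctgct
Dusp8: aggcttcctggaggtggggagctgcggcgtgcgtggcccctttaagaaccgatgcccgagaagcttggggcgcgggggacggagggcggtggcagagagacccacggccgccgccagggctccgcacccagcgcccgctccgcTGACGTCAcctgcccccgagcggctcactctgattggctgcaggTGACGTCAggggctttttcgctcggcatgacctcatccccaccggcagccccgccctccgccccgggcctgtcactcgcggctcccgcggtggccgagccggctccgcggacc
Dusp1: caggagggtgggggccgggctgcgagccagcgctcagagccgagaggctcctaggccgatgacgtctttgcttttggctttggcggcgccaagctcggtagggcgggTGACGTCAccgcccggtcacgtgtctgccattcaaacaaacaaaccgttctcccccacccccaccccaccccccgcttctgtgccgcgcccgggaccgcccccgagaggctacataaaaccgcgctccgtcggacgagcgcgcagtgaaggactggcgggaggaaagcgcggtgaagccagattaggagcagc

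The ATF4 and C/EBP core stood in 8 of 339 promoters of genes that rose (2.36%), in 1 of 298 of genes that fell (0.336%) and in 71 of 8464 of all tested genes with a promoter (0.839%). The 8 were Atf3, Chac1, Fgf21, Frmd4b, G6pc, Got1, Il20rb and Vldlr. On the ATF4 list it stood in 7 of 25 promoters (28%), those of Aars, Atf3, Chac1, Fgf21, Nupr1, Slc7a11 and Vldlr. Aars, Nupr1 and Slc7a11 were not called. The list was drawn up as one of ATF4 targets, so this share describes its members and is no independent test. The CREB palindrome stood in 17 of 339 promoters of genes that rose (5.01%), 4 of 298 of genes that fell (1.34%) and 280 of 8464 in all (3.31%). On the list of CREB and CRTC targets it was found in 1 of 15 promoters, that of Dusp1. A match describes these letters in these windows only, and the motifs were chosen with results of these data known.

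Immediate early genes are induced by signals within minutes, without new protein synthesis. Of 21 tested, 11 (52.4%) rose in knockout livers and none fell, with a median of 1.23, beside 0.43 in saline, 0.27 in mineral oil and 0.11 after CCl4. Besides Dusp1 and Atf3, Fosb, a partner in the AP-1 factor, had 8.33 and 8.07 in knockout livers and was not above background in wild-type livers (5.08 and 5.28), so that it was at least 6.34-fold higher (adjusted p = 0.00011). Zfp36, which destabilises mRNAs, had 13.15 and 12.96 in knockout livers against 10.80 and 10.59 in wild-type livers (2.36 ± 0.27, adjusted p = 0.00099). Both knockout arrays stood above both wild-type arrays in each, as in every gene called higher. Klf4 (2.25, adjusted p = 0.012), Jun (1.81, adjusted p = 0.015), Ier3 (1.78, adjusted p = 0.026) and Junb (1.58, adjusted p = 0.0082) were among the other calls. The difference from the other 3 agents was called for 3 members, Dusp1, Fosb and Zfp36 (2.12, adjusted p = 0.011, for Zfp36). With 1 array left out 3 to 5 of the 21 were left, among them Dusp1, Fosb and Zfp36 each time.

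Growth arrest genes that p53 and stress signals induce gave calls in both directions. Of 18 tested, 4 rose (22.2%) and 2 fell (11.1%), against 4.02% and 3.51% of all tested genes. Plk3, a stress-response kinase, had 13.90 and 13.81 in knockout livers against 10.46 and 10.87 in wild-type livers (3.19 ± 0.35, adjusted p = 0.00075). Gadd45a, induced by DNA damage and by other stress, had 11.19 and 10.83 against 9.09 and 8.74 (2.10 ± 0.30, adjusted p = 0.0025). Trp53inp1 rose by 1.88 (adjusted p = 0.0059) and Cdkn1a, the cell cycle inhibitor p21, by 1.42 (adjusted p = 0.0075), whereas the apoptosis gene Bbc3 (-1.46, adjusted p = 0.043) and Sesn1 (-1.04, adjusted p = 0.048) fell. The calls for Plk3 and Gadd45a held without each array in turn, that for Trp53inp1 was lost without wild-type array 2, and that for Bbc3 without wild-type array 1, wild-type array 2 or knockout array 2, without the probe filter and with only the AICAR arrays fitted. The other two Bbc3 probes differed by 0.12 (unadjusted p = 0.64) and -0.87.

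Of 17 tested genes of the circadian clock, 5 (29.4%) rose and none fell. Nfil3, a repressor of the clock output, had 13.23 and 12.97 in knockout livers against 9.90 and 9.93 in wild-type livers (3.18 ± 0.21, adjusted p = 7.2e-05). Bhlhe40, which represses CLOCK and BMAL1, had 12.91 and 13.57 against 11.78 and 11.34 (1.68 ± 0.29, adjusted p = 0.0064). Per1 (1.79 ± 0.36, adjusted p = 0.015) and Cry2 (1.56 ± 0.27, adjusted p = 0.0063), 2 repressors of the core loop, also rose. The median over the 17 was 0.68 after AICAR, beside -0.09 in saline, -0.51 in mineral oil and -0.06 after CCl4, and the difference from these 3 was called for Nfil3 (2.59, adjusted p = 0.001), Bhlhe40 (1.78, adjusted p = 0.03) and Cry2 (1.56, adjusted p = 0.038). The hour at which the livers were taken was not given in the sources used here, and its part in these values was not tested. Nfil3 was called in each omission of an array, Per1 in none, and 1 to 3 of the 17 were called in each.

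**Figure D3:**
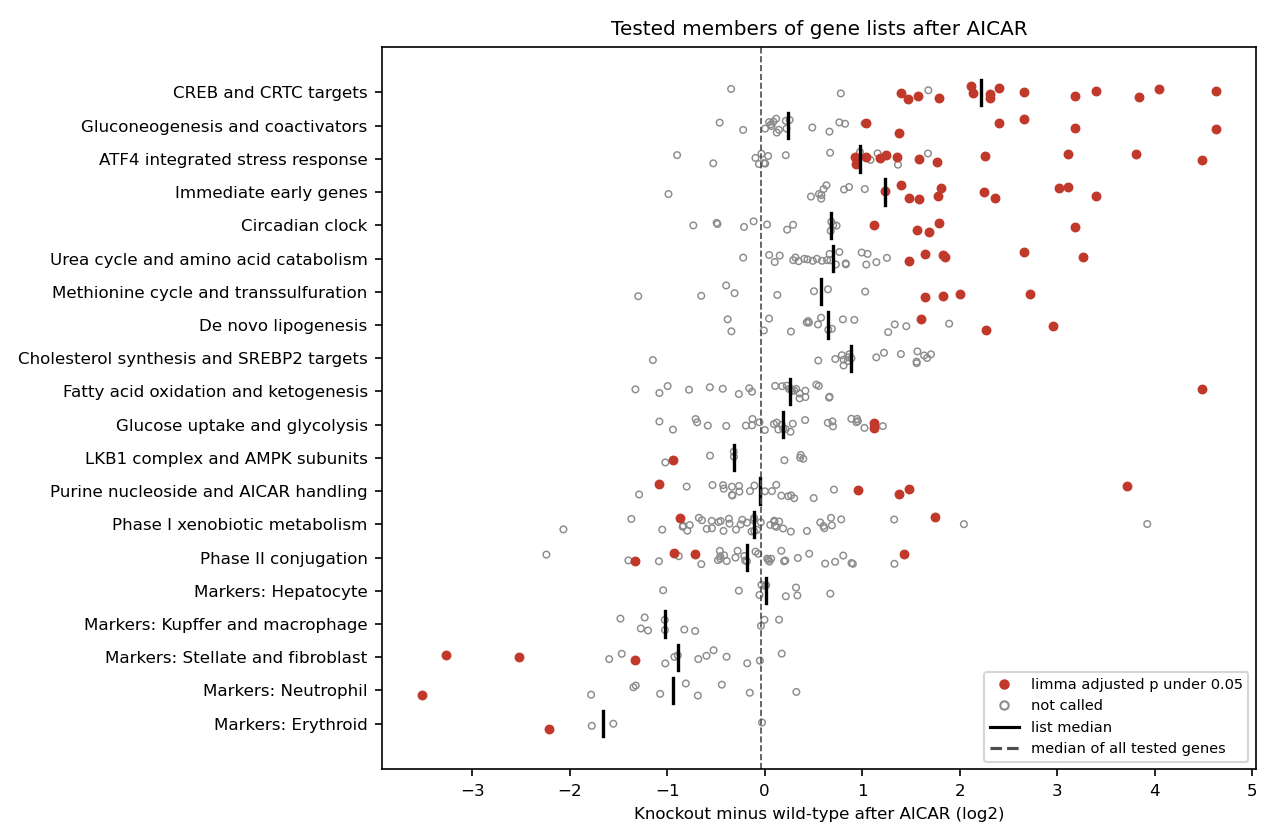
Knockout minus wild-type log2 difference after AICAR of the tested members of gene lists, a filled point for each called gene and an open point for each other gene, with list medians as vertical bars and the median of all tested genes (-0.04) as a dashed line. CREB and CRTC targets have the highest median among the lists shown (2.22), and the stellate and Kupffer cell markers lie mostly below 0.

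Genes of lipid synthesis were mostly higher in knockout livers, though most did not pass the test. Of 21 tested genes of de novo lipogenesis, 18 were higher, with a median of 0.65. Among the 21, 3 rose (14.3%, against 4.02% of all tested genes) and none fell. They were Lpin1, a phosphatidate phosphatase (2.96, adjusted p = 0.0499), Elovl6, which elongates fatty acids (2.27, adjusted p = 0.014), and Acly, which makes acetyl-CoA from citrate (1.6, adjusted p = 0.0058). Of 19 tested genes of cholesterol synthesis 18 were higher in knockout livers, with a median of 0.89, but 0 were called in limma and 9 had an unadjusted p under 0.05. Between 0 and 8 of these 19 were called under the other processing settings. Hilpda, a lipid droplet protein that inhibits lipolysis, rose (2.42, adjusted p = 0.026), and Plin3, a coat protein of droplets, fell (-1.66, adjusted p = 0.0068). Of 26 genes of fatty acid oxidation and ketogenesis only Fgf21 was called. The calls for Lpin1 and Hilpda were lost without any of the 4 arrays (Lpin1 also without the probe filter, with a trended robust prior, with array weights and with the replicate block), that for Elovl6 without wild-type array 1, wild-type array 2 or knockout array 1, that for Acly without wild-type array 2, and that for Plin3 without wild-type array 1, wild-type array 2 or knockout array 2.

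Among genes that handle AICAR itself and purines, the enzyme that phosphorylates the nucleoside did not pass the test. Adk, adenosine kinase, had 14.64 and 14.69 in knockout livers against 14.56 and 14.28 in wild-type livers (0.24 ± 0.20, adjusted p = 0.5). Ampd1, an AMP deaminase known from skeletal muscle, had 9.28 and 8.66 in knockout livers and was not above background in wild-type livers (5.2 and 5.31), which made it at least 10.8-fold higher (adjusted p = 0.00011). On the 12 arrays of the other agents Ampd1 lay between 4.88 and 5.68. The size again depended on the background correction, with a log2 difference of 1.89 without it. Of 4 tested skeletal muscle markers 0 were called in limma and 0 had an unadjusted p under 0.05. In all, 4 of 26 genes on the list of purine and AICAR handling rose (15.4%) and 1 fell (3.85%), against 4.02% and 3.51% of all tested genes. Those that rose were Ampd1, Fbp1, Ppat at 0.96, and Paics at 1.48 (adjusted p = 0.019), the last 2 of de novo purine synthesis. Fbp1, whose enzyme the AMP analog inhibits, is no purine gene and is also counted under glucose production. The nucleoside transporter Slc29a3 fell (-1.08, adjusted p = 0.043). Ampd1 was called without each array in turn, and the calls for Paics and Slc29a3 were lost without any of the 4, that for Slc29a3 also without the probe filter and with only the AICAR arrays fitted.

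Nr1i3, the constitutive androstane receptor that switches on drug metabolism, had 7.44 and 7.68 in knockout livers against 9.99 and 9.82 in wild-type livers (-2.35 ± 0.29, adjusted p = 0.0012). It was also lower in knockout livers under the other agents, by -1.79 in saline, -0.99 in mineral oil and -1.03 after CCl4 (mean -1.27, adjusted p = 0.0028), and its call after AICAR held without each array in turn. Few genes of phase I drug metabolism were called. Of 47 tested, 1 rose and 1 fell (2.13% each, against 4.02% and 3.51% of all tested genes). The median was -0.11, beside -0.43 in saline, -0.39 in mineral oil and -0.45 after CCl4, and 9 fell when these last 3 effects were averaged. Cyp2a12 fell by 0.87 (adjusted p = 0.0096) and Cyp2g1 rose by 1.75 (adjusted p = 0.049). Cyp2e1, the enzyme that activates CCl4, had 14.40 and 14.37 in knockout livers against 14.79 and 15.06 in wild-type livers (-0.54 ± 0.48, adjusted p = 0.54). Of 37 phase II genes, 1 rose (2.7%) and 3 fell (8.11%). Gstk1 rose (1.43, adjusted p = 0.034), and Nat2 (-1.33, adjusted p = 0.011), Ugt1a6a (-0.92, adjusted p = 0.011) and Gstm5 (-0.72, adjusted p = 0.025) fell. The calls for Cyp2a12, Cyp2g1, Gstk1 and Gstm5 were lost without any of the 4 arrays, those for Nat2 and Ugt1a6a without 2 and 3 of them. Another Ugt1a6a probe, the brighter, differed by 0.28 (unadjusted p = 0.23) and the remaining one by -0.51, so the fall of Ugt1a6a rested on its probe. Cyp2g1 was also lost with median centring or without the probe filter, and Gstm5 with only the AICAR arrays fitted.

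Sex-biased genes of the liver depend on the pattern of growth hormone release. Of 19 tested male-biased genes 1 rose (5.26%, against 4.02% of all tested genes). It was Cspg5, a proteoglycan that was not above background in wild-type livers (at least 5.07-fold, adjusted p = 0.0097, lost without any of the 4 arrays). The median over the 19 was 0.12 after AICAR, against -1.14 in saline, -1.70 in mineral oil and -1.47 after CCl4, and 9 fell when these 3 were averaged. The difference was called for 1 of the 19, the urinary protein gene Mup20 (1.54, adjusted p = 0.038), which had 13.39 and 12.55 in knockout livers against 13.53 and 13.37 in wild-type livers after AICAR. Of 8 female-biased genes Cyp17a1 and Cyp2g1 rose (25%), with a median of 1.14. Stat5a, a transducer of growth hormone signals, fell by 1.07 (adjusted p = 0.0054, lost without wild-type array 1), and Irs2, an insulin receptor substrate that is also a CREB target, had 10.75 and 9.99 in knockout livers against 7.70 and 8.43 in wild-type livers (2.31 ± 0.35, adjusted p = 0.0037).

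Class II histocompatibility genes, which present antigen on macrophages, dendritic cells and B cells, were among the genes with the largest fall in knockout livers. H2-Aa, an alpha chain, had 6.69 and 7.26 in knockout livers against 12.29 and 11.42 in wild-type livers (-4.88 ± 1.15, adjusted p = 0.028). H2-Eb1, a beta chain, had 7.28 and 7.83 against 12.37 and 11.34 (-4.30 ± 1.00, adjusted p = 0.026). D17H6S56E-5, with 5.10 and 5.67 (1 of the 2 arrays above background) against 9.89 and 9.48 (-4.30 ± 0.79, adjusted p = 0.0094), and H2-Bl, a class I gene that RefSeq lists as a transcribed pseudogene, with 6.41 and 6.63 against 9.89 and 9.86 (-3.35 ± 0.87, adjusted p = 0.042), showed the same order. These 4 genes are all on chromosome 17. H2-Ab1, the beta chain that pairs with H2-Aa, and Cd74, the invariant chain, both added after their values were seen, did not share it: H2-Ab1 had 12.83 and 13.62 in knockout livers against 14.35 and 12.99 in wild-type livers, and Cd74 had 13.32 and 13.78 against 14.69 and 13.81.

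The low values did not follow the agent. H2-Aa was as low as after AICAR on both knockout CCl4 arrays (5.98 and 6.92) and on 1 of the 2 knockout oil arrays (6.29, against 10.73 on the other), but had 12.10 and 12.10 on the knockout saline arrays. The 8 wild-type arrays had 11.15 to 13.16. H2-Eb1, D17H6S56E-5 and H2-Bl were low on the same 5 knockout arrays: H2-Bl had 5.67 to 6.63 on them and 9.86 to 11.16 on the other 11 arrays. The calls for H2-Aa, H2-Eb1 and H2-Bl after AICAR were lost without any of the 4 AICAR arrays, and H2-Bl also without the probe filter and with a trended robust prior. What sets these 5 knockout arrays apart was not tested, and the labels link no array to an animal. Of 11 tested markers of Kupffer cells and macrophages 10 were below wild-type, the log2 of their summed signal was 14.14 and 14.45 in knockout livers against 15.14 and 15.53 in wild-type livers, and 0 were called in limma and 3 had an unadjusted p under 0.05. The median knockout effect over the 11 was -1.02 after AICAR, -0.11 in saline, -0.05 in mineral oil and -0.26 after CCl4. The part of these cells in the result was not tested, and in whole liver fewer cells of a type and less RNA per cell cannot be told apart.

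**Figure D4:**
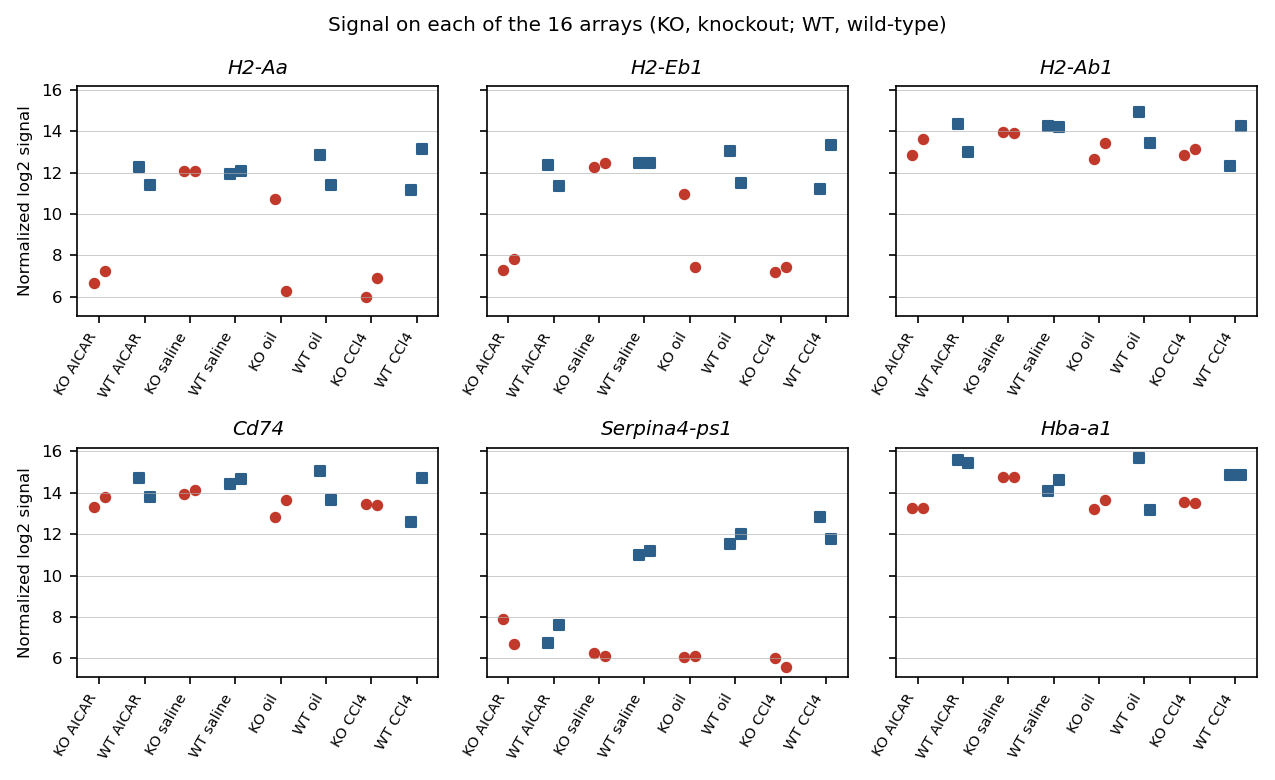
Normalized log2 signal on each of the 16 arrays for selected genes, a point for each array, with knockout (KO) left of wild-type (WT) within each agent. H2-Aa is low on 5 knockout arrays, whereas Serpina4-ps1 is high on wild-type arrays of every agent except AICAR.

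Several of the other genes with a large fall were not above background in knockout livers. Defb1, a beta-defensin, was not above background in knockout livers (5.24 and 5.36) and had 10.14 and 9.14 in wild-type livers, so it was at least 15.6-fold lower (adjusted p = 0.0042). Phlda2, an imprinted gene known from the placenta, likewise had 5.15 and 5.29 against 9.14 and 9.36, at least 11.9-fold lower (adjusted p = 0.00027). Gipc2, a PDZ domain protein, was at least 8.0-fold lower (4.85 and 4.91 against 8.91 and 8.44, adjusted p = 0.019), and Ifnlr1, a chain of the receptor for type III interferons, at least 6.32-fold lower (5.0 and 5.42 against 8.62 and 8.05, adjusted p = 0.0048). Depp1, which FOXO factors induce, had 7.24 and 6.34 in knockout livers against 9.72 and 10.58 in wild-type livers (-3.36 ± 0.47, adjusted p = 0.0023), and it was lower in knockout livers under each other agent (-4.45 in saline, -2.18 in mineral oil, -1.19 after CCl4). The groups did not overlap in any of the 5, which the rule for naming them required. The calls for Phlda2 and Depp1 held without each array in turn, those for Defb1 and Ifnlr1 were lost without wild-type array 1 (adjusted p = 0.05 and 0.054), and that for Gipc2 without any of the 4. Other Ifnlr1 probes differed by -0.29 (unadjusted p = 0.33) and -2.38.

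Spink1, a trypsin inhibitor, had 8.27 and 8.77 in knockout livers against 11.85 and 12.56 in wild-type livers (-3.69 ± 0.91, adjusted p = 0.035). Lrp11, of the LDL receptor family, had 6.22 and 6.14 against 9.39 and 9.23 (-3.13 ± 0.59, adjusted p = 0.01). Fndc10 had 8.10 and 9.59 against 12.21 and 11.61 (-3.06 ± 0.74, adjusted p = 0.032). Smpd3, a neutral sphingomyelinase, had 5.74 and 6.76 against 9.18 and 9.26 (-2.97 ± 0.55, adjusted p = 0.0099). Each of these 4 calls was lost in at least 3 of the 4 omissions of an array, and that for Spink1 also without the probe filter and with a trended robust prior.

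Lcn2, a siderophore-binding protein of the acute phase that neutrophils also carry, had 11.88 and 12.89 in knockout livers against 15.92 and 15.88 in wild-type livers (-3.51 ± 0.63, adjusted p = 0.0079). The wild-type AICAR arrays were the highest of all 16, since the 12 arrays of the other agents had 13.21 to 15.64, and the knockout AICAR arrays were the lowest. The difference from the other 3 agents was -3.54 (adjusted p = 0.044). Of 26 tested acute-phase genes 3 fell (11.5%, against 3.51% of all tested genes) and none rose. They were Lcn2, Saa4 (-1.19) and Crp (-0.84), and the median of the 26 was -0.25. Lcn2 was lost as a call without wild-type array 1, wild-type array 2 or knockout array 1 (adjusted p up to 0.068), and Saa4 and Crp without any of the 4, Saa4 also without the probe filter and with the replicate block, and Crp with median centring. Of 10 tested neutrophil markers Lcn2 was the only call, and the log2 of their summed signal, Lcn2 included, was 12.99 and 13.20 in knockout livers against 16.08 and 15.99 in wild-type livers, most of it Lcn2 itself. Without Lcn2, a setting chosen after seeing the data, the sum over 9 markers was 12.09 and 10.804 in knockout livers against 12.83 and 12.25 in wild-type livers. The median difference of the 10 was -0.94, and -1.66 to -0.38 with 1 array left out. The part of neutrophils in the result was not tested.

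Of 15 tested genes of stellate cells and fibroblasts, the collagen-producing cells of the liver, 3 fell in knockout livers (20%, against 3.51% of all tested genes). Of the 15, 14 were below wild-type, with a median of -0.89. The log2 of the summed signal of the 15 was 13.72 and 13.90 in knockout livers against 14.74 and 14.65 in wild-type livers. Acta2, smooth muscle actin, had 7.42 and 8.11 against 10.84 and 11.22 (-3.26 ± 0.82, adjusted p = 0.037), and Col1a1, a chain of type I collagen, differed by -2.52 ± 0.63 (adjusted p = 0.037) and Pdgfrb, a growth factor receptor, by -1.33 (adjusted p = 0.028). All 3 calls were lost without any of the 4 arrays, and that for Acta2 also without the probe filter, with a trended robust prior and with the replicate block, while 3 other Acta2 probes differed by -1.16, -1.09 and -2.16. The call for Col1a1 was also lost without the probe filter. The erythroid gene Hba-a1, an alpha globin, had 13.28 and 13.28 in knockout livers against 15.57 and 15.42 in wild-type livers (-2.21 ± 0.59, adjusted p = 0.045), and its call was lost under the same settings as that for Acta2. Wt1, a mesothelial marker that was not above background in knockout livers, was at least 2.04-fold lower (adjusted p = 0.0086, lost without wild-type array 2 or knockout array 1). Markers of hepatocytes had a summed log2 signal of 18.66 and 18.74 in knockout livers against 18.64 and 18.65 in wild-type livers, and those of sinusoidal endothelium 13.87 and 13.95 against 14.20 and 13.95. The part of these cells in the genes that fell was not tested.

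The knockout effect after AICAR was then set against that under the other agents. The mean knockout effect in saline, mineral oil and after CCl4 gave 506 calls (4.46%), 263 higher (2.32%) and 243 lower (2.14%), and 175 genes were called both there and after AICAR, 20.5% of the AICAR calls and 34.6% of the others. These 2 comparisons share no array, but both use the spread that the fit takes over all groups, so a gene with a small spread is more readily called in both. Of the 175, 170 went in the same direction, 103 higher and 67 lower. The difference between the 2 effects was called for 190 genes (1.68%), 132 higher (1.16%) and 58 lower (0.512%) after AICAR. Of these, 124 were also called higher and 51 called lower after AICAR itself. Against saline alone, 34 genes (0.3%) were called, 28 higher (0.247%) and 6 lower (0.0529%), and 32 of them were called against the other 3 agents as well. Both differences share the AICAR and saline arrays. The knockout saline arrays count as 1 sample here, assumed to vary like the other groups, so the knockout effect in saline has no spread of its own on that side. The 34 calls became 2 without wild-type AICAR array 1 or wild-type saline array 1, 0 without wild-type AICAR array 2 or wild-type saline array 2, and 14 and 11 without knockout AICAR array 1 and 2. The 190 became 52 and 57 without wild-type AICAR array 1 and 2, 78 and 81 without knockout AICAR array 1 and 2, 94 and 113 without wild-type saline array 1 and 2, 98 and 108 without wild-type CCl4 array 1 and 2, and 311 without wild-type oil array 1. The 506 became 308 and 297 without wild-type saline array 1 and 2 and 308 without wild-type CCl4 array 2.

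**Figure D5:**
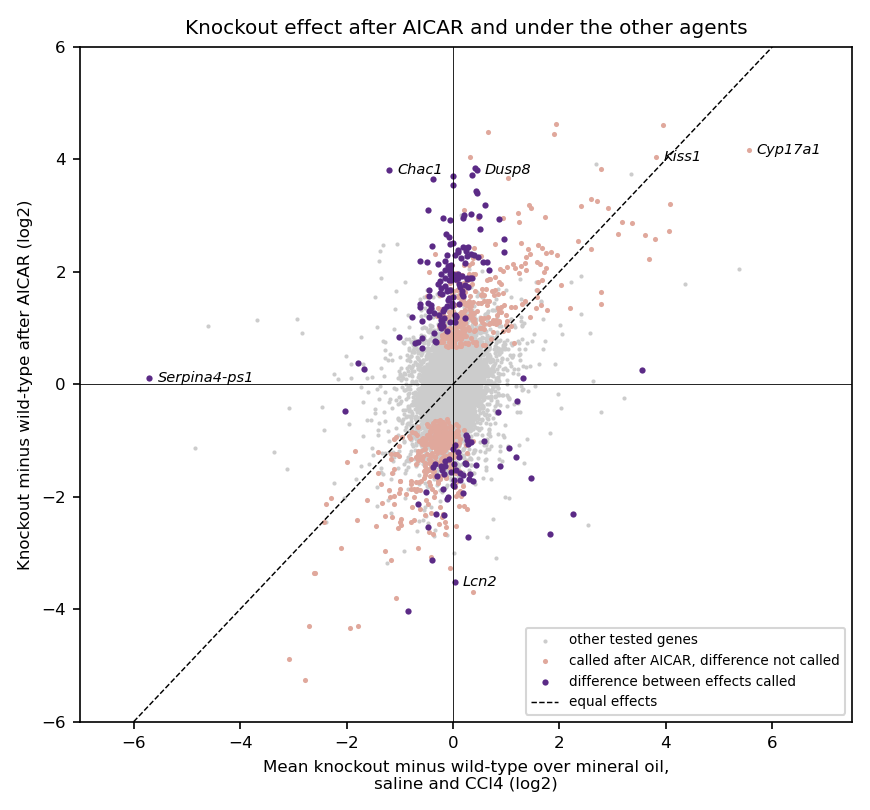
Knockout minus wild-type log2 difference of each tested gene after AICAR (vertical axis) against the mean of that difference over mineral oil, saline and CCl4 (horizontal axis), a point for each gene, with called differences between the effects in purple, other genes called after AICAR in pink and equal effects as a dashed line. Kiss1 and Cyp17a1 are high on both axes, Dusp8 (3.82 after AICAR) and Lcn2 (-3.51) lie near 0 on the horizontal axis, and Serpina4-ps1 (0.11) lies near 0 on the vertical axis.

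Epha2, a receptor of ephrins, was among the genes that stood apart after AICAR. It had 9.75 and 9.57 in knockout livers against 6.73 and 6.39 in wild-type livers after AICAR (3.10 ± 0.31, adjusted p = 0.00037), whereas the 12 other arrays had 6.22 to 8.03. Its effect exceeded that in saline by 3.97 (adjusted p = 0.016) and that of the other 3 agents by 3.57 (adjusted p = 0.0013). Gp5, Dusp8 and Pvr were called in the same 2 tests, at 3.50 and 3.44 for Gp5, 3.53 and 3.36 for Dusp8, and 3.39 and 3.38 for Pvr. Nfil3 (2.92 against saline, adjusted p = 0.016) and Dusp1 (2.82 against saline, adjusted p = 0.035) were called in both as well.

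Acnat2 and Gspt2 had a knockout effect after AICAR below that under the other agents. Acnat2, an enzyme that conjugates acyl-CoA with amino acids, had 8.16 and 7.71 in knockout livers against 10.85 and 10.43 in wild-type livers (-2.71 ± 0.27, adjusted p = 0.00037), and its 12 other arrays had 9.54 to 10.97. Gspt2, a translation termination factor, had 7.21 and 7.02 against 9.46 and 9.38 (-2.30, adjusted p = 0.00014), with 8.27 to 9.43 on the other arrays. The effects on Acnat2 and Gspt2 minus those in saline were -3.07 (adjusted p = 0.022) and -2.49 (adjusted p = 0.016) on the log2 scale. In both genes the 2 knockout AICAR arrays were the lowest of the 16.

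Serpina4-ps1 and Tuba8 showed the opposite, a knockout effect under the other agents that was not called after AICAR. Serpina4-ps1, a serpin pseudogene, had 7.91 and 6.67 in knockout livers against 6.73 and 7.61 in wild-type livers after AICAR (0.11, adjusted p = 0.9), so the groups overlapped. Under the other agents its knockout arrays had 5.6 to 6.24 and its wild-type arrays 11.01 to 12.81. The wild-type AICAR arrays were thus the only wild-type arrays without this signal, and the difference was 5.82 against the other 3 agents (adjusted p = 0.00092) and 5.05 against saline (adjusted p = 0.022). Tuba8, an alpha-tubulin, had 9.35 and 9.18 in knockout livers against 8.68 and 9.33 in wild-type livers after AICAR, while its knockout effect was 3.28 in saline, 3.63 in mineral oil and 3.76 after CCl4 (difference -3.30, adjusted p = 0.044). Serpin genes share sequence with close copies, so the reading of that probe is uncertain.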

How the data were processed

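The series profiled liver RNA on 16 Illumina mouse expression arrays, with biotin-labelled cRNA, per the labels' protocols. The deposited scanner table gives a probe intensity and a detection p-value for each array, made by the authors with GenomeStudio, per the submitters' processing notes, where no version or step is given. The deposited value table holds normalized intensity values of the same arrays, and they were used as an alternative. Its columns ranked the probes as the scanner table did, with medians of 190.9 to 191.1, and its scale was taken as linear from the values.

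The scanner intensity values were corrected and normalized with limma 3.58.1 (neqc: normexp with background estimated from the detection p-values, an offset of 16, quantile normalization, log2) in R 4.3.3. The offset makes differences of dim genes smaller. A probe had to reach a detection p-value under 0.05 on 2 or more arrays, which 15411 of 25697 did, and the probe with the highest mean stood for each gene, which left 11338 features. Symbols came from the platform annotation (23978 probes with 1 symbol, 1719 with none, 0 with several), and 902 features had none. The 33 named genes with further probes had 41 of them, and 2 of these had the opposite sign, 0 of the 2 with an unadjusted p under 0.05.

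A limma model with 8 group means was fitted to 15 samples, since the 2 knockout saline arrays were averaged, and p-values were two-sided with Benjamini-Hochberg adjustment over all features (threshold 0.05). Contrasts were the knockout effect after AICAR, its difference from that in saline and from the mean of the other 3 agents, and that mean. The fit has 7 residual and 3.76 prior degrees of freedom, so the number of arrays limits the precision. The replicate numbers of the labels share only a number: deviations of same-numbered arrays correlated at -0.09. Slides, scan times and dissection days were not used here.

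The text names the 15 highest and 15 lowest called genes after AICAR, among genes with a symbol whose knockout and wild-type arrays do not overlap. It also names the 5 highest and 5 lowest called for each difference, up to 4 called genes of each of 48 gene lists (12 of them cell type markers) and a set of LKB1, AMPK and glucose genes. Other list members were named after their values were seen. Members, lists, motifs and tests were chosen with earlier results of these data known. Alternatives covered the background correction, the normalization, the probe filter, the choice of probe, array weights, a trended robust prior, the samples fitted, the replicate block and each array left out.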

Additional observations from a re-analysis of the deposited data

Results flagged for a closer look

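The knockout effect after AICAR differed from that in saline for 34 genes and from the mean of saline, mineral oil and CCl4 for 190 genes (limma, Benjamini-Hochberg adjusted p under 0.05, an interaction test on 2 arrays a group, with the knockout saline arrays counted as 1). Each gene below is given for one of these tests of a difference between effects, on the log2 scale. Fitted differences of genes that were not above background in a group are no bounds.

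Against saline the 5 highest were Serpina4-ps1 (5.05), Epha2 (3.97), Ampd1 (3.60), Dusp8 (3.53) and Gp5 (3.50). The 5 lowest were Acnat2 (-3.07), Ube2u (-2.82), Gspt2 (-2.49), Tmem102 (-2.18) and Hjurp (-2.10). For Ube2u, a ubiquitin-conjugating enzyme, the knockout saline arrays (7.12 and 6.89) stood apart, while the other 14 arrays had 4.74 to 6.04. Tmem102 had 5.63 and 5.84 in knockout livers, with 1 of the 2 arrays above background, against 7.38 and 7.71 in wild-type livers after AICAR, and 7.24 to 8.02 on the other 12 arrays. Hjurp, a histone chaperone of the centromere, differed by -0.90 after AICAR itself (adjusted p = 0.029).

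Against the mean of the other 3 agents the 5 highest were Serpina4-ps1 (5.82), Chac1 (5.01), Dppa3 (4.03), Ampd1 (3.70) and Epha2 (3.57). The 5 lowest were Ly6d (-4.50), Lcn2 (-3.54), Tuba8 (-3.30), Phlda2 (-3.19) and Tceal5 (-3.12). Ly6d, a small surface protein, had 11.86 and 11.21 in knockout livers against 14.12 and 14.29 in wild-type livers after AICAR, while in saline the order was turned, with 14.03 and 14.05 in knockout livers against 10.97 and 11.90 in wild-type livers. Its difference after AICAR itself did not pass (-2.67, adjusted p = 0.078). Tceal5, of the transcription elongation factor A-like family, had 7.13 and 6.68 in knockout livers against 8.12 and 9.0 in wild-type livers after AICAR (-1.66, adjusted p = 0.049, lost without any of the 4 arrays, without background correction, without the probe filter and with the authors' normalized values).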

How the results depend on the processing

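With 2 arrays a group, every count rests on few arrays. A fit of the AICAR arrays alone gave 1043 calls after AICAR, and 659 of these were among the 854. The 854 calls after AICAR became 1286 (649 higher, 637 lower) with array weights, 1043 (484 higher, 559 lower) when only the AICAR arrays were fitted, against 456 and 398, and 743 to 1162 under the other settings; 229 to 355 were called with 1 AICAR array left out. The 34 differences from saline became 21 with the stricter probe filter, 59 with array weights, 118 with the knockout saline arrays as 2 samples and 43 (20 higher, 23 lower) in a fit of AICAR and saline arrays alone, with 0 to 38 after leaving out 1 array: 0 without wild-type AICAR array 2 (limma, 786 at an unadjusted p under 0.05) and 0 without wild-type saline array 2 (927). The 190 differences from the other 3 agents became 289 with array weights and 352 with 16 samples, with 52 to 311 after leaving out 1 array. The 506 calls over the other 3 agents became 962 with 16 samples, with 297 to 533 after leaving out 1 array. The difference of Stk11 lay between -1.09 and -0.79 with 1 array left out. With the replicate number as a block, 800 genes were called after AICAR, 18 against saline, 144 against the other 3 and 431 over the other 3, and Stk11 stayed at -0.94; the labels do not say that the numbers pair the samples. No result changed direction where it was called. Of 94 called genes named by rule besides Stk11, 72 were called under every other setting that left out no array, and 27 also with each AICAR array left out. Called list members named after their values were seen were not followed singly under these settings. Examples are Klf4, Jun, Ier3, Junb, Cdkn1a, Sesn1, Cebpb, Ppat, Psat1, Slc7a5 and Mthfd2. Signal over background limits the size of differences in dim genes: without background correction the log2 difference was -2.12 for Phlda2 and 1.36 for Fosb. The lower bounds given for genes not above background therefore hold only with that correction.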

Other observations

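Several groups of genes gave few or no calls after AICAR in limma, where 4.02% of all tested genes rose and 3.51% fell. Of 33 tested interferon response genes 0 were called and 1 had an unadjusted p under 0.05, with a median knockout minus wild-type difference of 0.17. Of 33 coagulation and complement genes 0 were called (2 at an unadjusted p under 0.05), and of 22 NRF2 and glutathione genes 0 (2 likewise). Of 30 cell cycle genes 0 were called (3 at an unadjusted p under 0.05), although 24 were higher in knockout livers. Respiratory chain genes shifted little: 53 of 62 were higher in knockout livers, with a median of 0.19, and 2 rose, the cytochrome oxidase subunits Cox7b and Cox7a2, each of which was lost without any of the 4 AICAR arrays and with median centring. Among 31 genes of glucose uptake and glycolysis, Slc2a2 (by 1 of its 3 probes) and Eno1b rose, and among 22 hypoxia responsive genes Egln3, an oxygen-sensing hydroxylase, rose by 2.22 (adjusted p = 0.006, lost without wild-type array 1 or knockout array 2), although its other probe, a dim one, differed by 0.58. Of 20 bile acid genes 1 fell, Hsd3b7 of bile acid synthesis, which was lost without any of the 4 arrays, with median centring and without the probe filter. Among 18 genes of iron regulation and metallothioneins, Id1 (2.12, adjusted p = 0.0496) rose, and among 26 nuclear receptors Rora (1.12, adjusted p = 0.023) rose besides the fall of Nr1i3. The calls for Id1 and Rora were lost without any of the 4 arrays, and that for Id1 also without the probe filter, with a trended robust prior and with the replicate block.

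Of 14 tested Serpina genes 0 were called in limma and 4 had an unadjusted p under 0.05. Markers of other cells gave few calls: of 7 tested T, B and NK cell markers 0 were called (0 at an unadjusted p under 0.05), of 6 cholangiocyte markers 0 (2 likewise), of 15 sinusoidal markers 0 (3), of 3 adipocyte markers 0 (2) and of 4 pancreatic acinar markers 0 (0).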
